A study of Homo sapiens with 16 samples.

Results

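The human mitochondrial genome carries 37 genes, and all of them were found in the gene table by their chromosome, out of 58735 genes in all. They were taken apart by the biotype in the table into 13 protein-coding genes, 2 ribosomal RNAs and 22 transfer RNAs. The choice used no measured value. All 13 protein-coding genes, both ribosomal RNAs and 8 transfer RNAs passed the filter on low counts that left 17309 genes for testing. The other 14 transfer RNA genes had 1 to 70 counts each over all 16 libraries and were not tested.

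The libraries came from SW620, an established human colorectal cancer cell line, and RNA with poly(A) tails was sequenced. One line carried a scrambled control hairpin (scramble) and another a hairpin against the transcription factor ATF4 (shATF4), so each arm is 1 line, and loss of ATF4 cannot be told apart from other differences between the lines. Each line had 3 untreated libraries, 3 after 24 h with 5-fluorouracil (5-FU) at 5 µM, an analogue of uracil that blocks thymidylate synthase and enters RNA and DNA, and 2 after 48 h. The 4 libraries titled 48 h carry a treatment tag that reads 24 h, and they were placed at 48 h by their titles and the design text of the series. Whether replicates came from separate cultures is not said in the labels, and p-values rest on the spread among these libraries, part or all of which may be technical.

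Total counts ran from 14571611 to 17824188 per library, of which 172581 to 534404 fell on the mitochondrial genes. ATF4, the target of the hairpin, was lower in shATF4 than in scramble cells at each state, by 1.13, 1.34 and 1.52 on the log2 scale untreated, at 24 h and at 48 h. All 7 epithelial markers had counts in every library. Their summed level was 11090.1 to 12468 CPM untreated, 8874 to 10817 at 24 h and 6502 to 7489.7 at 48 h. The fibroblast markers COL3A1 (0 counts in all libraries), DCN (1 count in all) and COL1A2 (0 to 3 counts per library) and the pan-leukocyte marker PTPRC (0 to 2) were at or near 0. The summed level of the 5 fibroblast markers, from COL1A1 and LUM, was 33.2 to 43.0 CPM untreated, 47.9 to 53.8 at 24 h and 45.0 to 58.3 at 48 h. The 4 immune markers summed to 0.312 to 1.90 CPM over all libraries. The 3 endothelial markers summed to 3.67 to 5.12 CPM untreated, 8.05 to 11.3 at 24 h and 6.75 to 13.7 at 48 h, with CDH5 at 0 to 8 counts per library. Whether these movements bear on the mitochondrial genes was not tested.

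Mitochondrial DNA is a circle that is transcribed from both strands into long precursors. The precursors are cut mainly at the transfer RNAs that lie between the other genes, and the pieces become the ribosomal RNAs of the mitochondrial ribosome, the transfer RNAs it uses, and messenger RNAs for subunits of the respiratory complexes I, III and IV and of ATP synthase (complex V). All other subunits of these complexes, and the proteins that copy, transcribe and process mitochondrial DNA and RNA, are encoded in the nucleus. Most mitochondrial messenger RNAs receive a short poly(A) tail that in several cases also completes the stop codon, the ribosomal RNAs carry very short tails, and ND6 is known for lacking a stable tail.

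The tail matters here because libraries were made from RNA bound to oligo(dT), and 6 of the 13 messenger RNAs end before their last codon is complete. The last 21 bases of 4 messenger RNAs are shown, with the letters after the last full codon, or the final codon, in capitals. They were read from the GENCODE 29 transcripts (GRCh38, same strand as the gene), whose coordinates were equal to those of the deposited table for 37 of 37 genes. MT-ND1 and MT-CYB end in an incomplete codon. MT-CO1 and MT-ND6 end in AGA and AGG, and MT-ND6 is the only messenger RNA on the minus strand.
MT-ND1: cagcattccccctcaaaccTA
MT-CYB: acaaaatactcaaatgggccT
MT-CO1: cccgtatacataaaatctAGA
MT-ND6: gagattgctcgggggaatAGG

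MT-ATP8 and MT-ATP6 share 46 bases of one transcript (mitochondrial chromosome, 8527 to 8572, plus strand), shown with the ATG start of MT-ATP6 and the TAG stop of MT-ATP8 in capitals. MT-ATP8 is only 207 bp long, so a read on this stretch can belong to either gene. How the counting treated such reads: not given in the sources used here. MT-ND4L and MT-ND4 share 7 bases in the same way. Counts of MT-ATP8 and, to a lesser degree, MT-ND4L are therefore uncertain. Where 13 messenger RNAs are counted here, the 13 protein-coding genes are meant, and the genes of such a pair are not separate transcripts.
MT-ATP8/MT-ATP6: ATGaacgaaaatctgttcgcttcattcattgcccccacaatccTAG

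The nuclear genome holds copies of mitochondrial genes, and the table lists 407 of them, 62 with at least 1 count. MTND2P28 (chromosome 1, 629640 to 630683) is 98.4% identical to MT-ND2 over 1042 aligned bases, and MTATP6P1 (chromosome 1, 633696 to 634376) is 98.5% identical to MT-ATP6 over 681. The first difference of each pair with 20 matching bases on both sides is shown in capitals, at positions 247 to 287 of MT-ND2 and 109 to 149 of MT-ATP6. Reads that do not cross such a base fit both copies. MTND2P28 had 5.19% to 6.67% as many counts as MT-ND2 in a library and MTATP6P1 3.89% to 9.45% as many as MT-ATP6, so a small part of the counts of these pairs may be exchanged.
MT-ND2: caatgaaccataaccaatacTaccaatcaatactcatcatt
MTND2P28: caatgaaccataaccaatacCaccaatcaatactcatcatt
MT-ATP6: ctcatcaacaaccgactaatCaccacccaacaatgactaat
MTATP6P1: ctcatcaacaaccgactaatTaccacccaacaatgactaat

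The 13 messenger RNAs together took a share of all counts that was low in 5 of the 6 untreated libraries and higher than in these 5 in every treated one. The scramble libraries had 0.753%, 1.42% and 0.766% untreated, 1.07%, 1.22% and 1.11% at 24 h, and 1.47% and 1.49% at 48 h. The shATF4 libraries had 0.795%, 0.773% and 0.764% untreated, 1.49%, 1.24% and 1.52% at 24 h, and 1.23% and 1.42% at 48 h. Untreated scramble replicate 2, at 1.42%, lay among the treated libraries.

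The 2 ribosomal RNAs separated treated from untreated libraries without overlap in both lines. Their share was 0.375%, 0.457% and 0.359% in untreated scramble libraries, 0.881%, 0.955% and 0.907% at 24 h, and 0.950% and 1.01% at 48 h. In shATF4 libraries it was 0.392%, 0.383% and 0.365% untreated, 1.23%, 1.14% and 1.45% at 24 h, and 0.918% and 0.955% at 48 h. The counts of ribosomal RNA for each count of messenger RNA were 0.322 to 0.498 untreated, 0.782 to 0.956 at 24 h and 0.646 to 0.746 at 48 h over both lines. In bulk RNA more cells of a kind, more RNA per cell and less of other RNAs cannot be told apart in such shares. The transfer RNA genes took 0.00456% to 0.00553% of counts untreated and 0.0105% to 0.0298% after treatment.

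**Figure D1:**
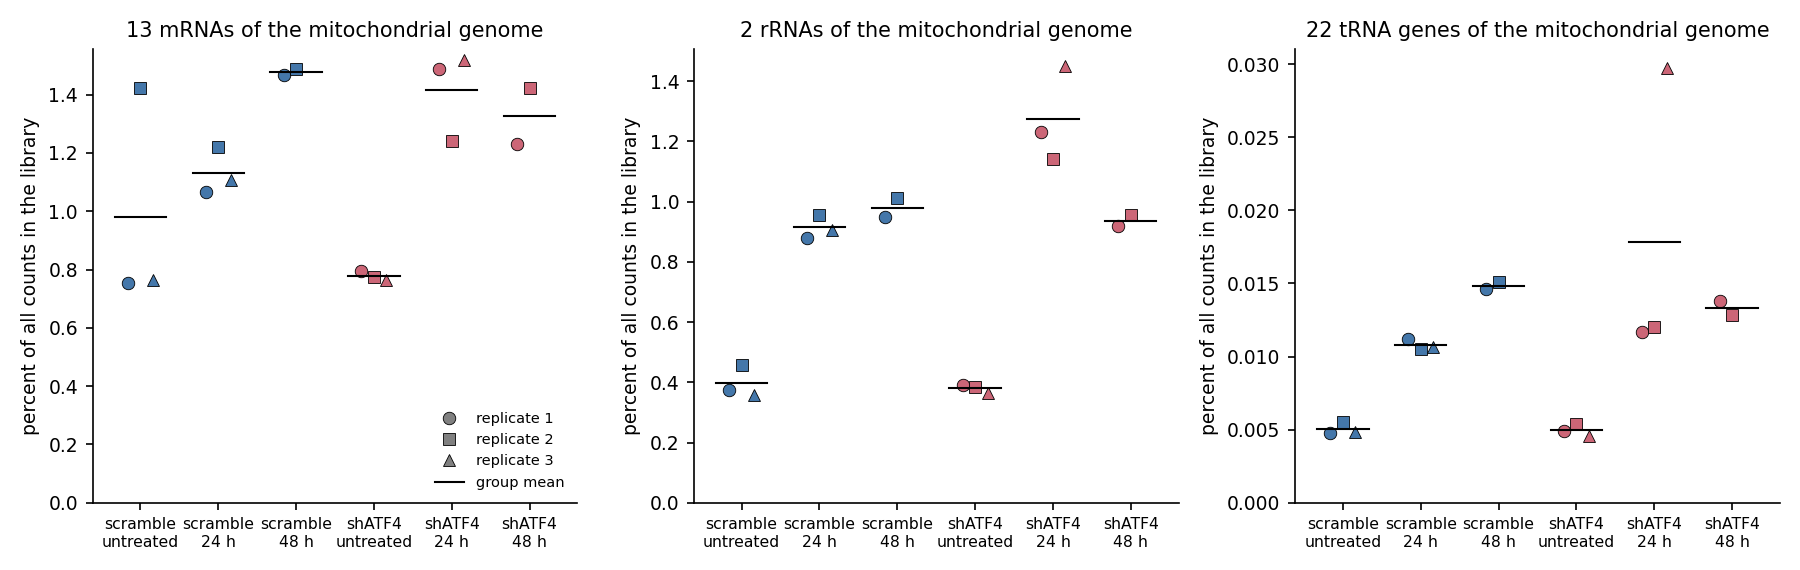
Share of all counts in each library (percent, vertical axis) that fell on the mitochondrial messenger RNAs, ribosomal RNAs and transfer RNA genes, for the 6 groups; each point is a library and each bar a group mean. Untreated scramble replicate 2 (1.42% messenger RNA) and shATF4 24 h replicate 3 (1.45% ribosomal RNA, 0.0298% transfer RNA) lie above the other libraries of their groups.

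In 2 groups a single library stood apart, and the genes concerned differed. In untreated scramble replicate 2 the level of 12 of the 13 messenger RNAs was 1.40 to 2.33 times the mean of the other replicates, with MT-ATP6, MT-ND4 and MT-ND1 the farthest. MT-ND3 was at 0.934 times, the ribosomal RNAs MT-RNR1 and MT-RNR2 at 1.23 and 1.25 times, and the transfer RNA genes MT-TN, MT-TC and MT-TP at 0.970, 1.04 and 1.03 times, while MT-TL1 and MT-TY were at 1.88 and 1.91 times. In shATF4 24 h replicate 3 the short protein-coding genes MT-ATP8, MT-ND4L and MT-ND3 were at 2.59, 2.38 and 2.06 times. MT-ATP6 and MT-ND4, which share transcripts with MT-ATP8 and MT-ND4L, were at 0.974 and 1.08 times. MT-RNR1 was at 1.68 times, MT-TN and MT-TC at 3.54 and 3.33 times, and MT-TL1 and MT-TY at 0.539 and 0.616 times. MT-CO1, MT-CYB and MT-ND1 were at 1.02, 1.02 and 1.03 times. RN7SL, the RNA of the signal recognition particle, which has no poly(A) tail, took 0.0713% of counts in the latter library, 0.0224% and 0.0241% in the other shATF4 24 h libraries and 0.00310% to 0.0161% in the remaining 13. Some of the results that rest on these libraries are given with and without both, and others with all libraries only. The 2 libraries were picked because levels of the members stood apart in them. Leaving them out narrows the spread of the same genes, so calls kept or gained in that fit are no independent support.

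Levels are given as CPM, counts divided by a library size scaled by TMM, a method that sets the bulk of genes equal between libraries. All adjusted p-values come from the quasi-likelihood test of edgeR, with Benjamini-Hochberg adjustment over the 17309 genes, and under 0.05 a gene was called. Statements that libraries of different groups do not overlap describe the tested values. The share of all genes without overlap was not counted, so they add no support to a call. TMM factors ran from 0.889 to 0.922 in untreated libraries and from 1.14 to 1.15 at 48 h. With total counts in place of TMM, a setting chosen after seeing the data, the median log2 change of all genes was 0.20 and 0.38 in scramble cells at 24 h and 48 h and 0.13 and 0.35 in shATF4 cells, and -0.01, 0.03, 0.03 and 0.03 with TMM. The genes called higher and lower were then 5990 and 1650 in scramble cells at 24 h (3769 and 3841 with TMM), 8301 and 2545 at 48 h (5301 and 5200 with TMM), 5128 and 2626 in shATF4 cells at 24 h (4018 and 3669 with TMM), and 7989 and 2485 at 48 h (5124 and 4973 with TMM). From 24 h to 48 h they were 4788 and 1947 in scramble cells (3249 and 3372 with TMM) and 6348 and 2357 in shATF4 cells (4101 and 4248 with TMM). Between the lines they were 237 and 236 untreated (187 and 319 with TMM) and 1082 and 2459 at 24 h (1821 and 1712 with TMM), and in the interactions 67 and 492 at 24 h (164 and 205 with TMM) and 144 and 304 at 48 h (225 and 250 with TMM). Log2 changes below are therefore relative to the bulk of genes.

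The response of scramble cells to 5-FU was clearest in the counts of the ribosomal RNAs, and those of the 12S and 16S RNAs rose at different times. These RNAs carry very short tails and poly(A) RNA was selected, so the counts stand for the captured part only. Here and below, a change in their amount cannot be told apart from a change in their capture. MT-RNR1, the 12S RNA of the small subunit (648 to 1601, plus strand), had 343, 433 and 359.6 CPM untreated, 477, 503 and 476 at 24 h, and 1071 and 1138 at 48 h. MT-RNR2, the 16S RNA of the large subunit (1671 to 3229, plus strand), had 3841, 4695 and 3681 CPM untreated, 7981, 8816 and 8282 at 24 h, and 7226 and 7716 at 48 h. All treated libraries lay above all untreated ones for both. MT-RNR1 was therefore mostly raised after 24 h, and MT-RNR2 before.

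MT-RNR1 rose by a log2 change of 0.36 ± 0.14 (SE, 3 against 3 libraries, adjusted p = 0.0374) at 24 h and by 1.54 ± 0.15 (3 against 2, adjusted p = 1.64e-08) at 48 h. The call at 24 h was lost without any of 5 libraries (24 h replicates 1, 2 and 3, untreated replicates 1 and 3), with adjusted p-values of 0.0568 to 0.148, and was kept without both libraries that stood apart (0.47 ± 0.05, adjusted p = 7.76e-08). MT-RNR2 rose by 1.04 ± 0.09 (adjusted p = 5.2e-09) at 24 h and by 0.88 ± 0.09 (adjusted p = 6.63e-08) at 48 h. From 24 h to 48 h MT-RNR1 rose by a further 1.19 ± 0.15 (adjusted p = 2.83e-06), and the change of MT-RNR2 was -0.16 ± 0.09 (adjusted p = 0.185), which was called without both libraries that stood apart (adjusted p = 0.00485). Of all genes tested, 21.8% were called higher and 22.2% lower at 24 h in scramble cells, and 30.6% higher and 30.0% lower at 48 h.

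In shATF4 cells both ribosomal RNAs rose by 24 h, and MT-RNR2 then fell by 48 h. MT-RNR1 had 384, 364 and 339.5 CPM untreated, 715, 709 and 1196 at 24 h, and 784 and 838 at 48 h. MT-RNR2 had 3905, 3795 and 3649.6 CPM untreated, 11612, 10796 and 13864 at 24 h, and 7221 and 7549.9 at 48 h. Treated and untreated libraries did not overlap, and replicate 3 was the highest of the 24 h libraries for both. The log2 change at 24 h was 1.27 ± 0.14 (adjusted p = 2.61e-07) for MT-RNR1 and 1.68 ± 0.09 (adjusted p = 8.06e-12) for MT-RNR2. At 48 h it was 1.16 ± 0.15 (adjusted p = 1.07e-06) and 0.97 ± 0.09 (adjusted p = 1.92e-08). From 24 h to 48 h MT-RNR2 fell by 0.71 ± 0.10 (adjusted p = 4.38e-06), and the change of MT-RNR1 was -0.11 ± 0.15 (adjusted p = 0.584). Without replicate 3 at 24 h and the other library that stood apart, the latter was called in the other direction, at 0.19 ± 0.06 (adjusted p = 0.00843).

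The ratio of 16S to 12S counts needs no scaling between libraries and moved in both directions. Untreated libraries of both lines had 10.2 to 11.2 counts of MT-RNR2 for each of MT-RNR1. The ratio was 16.7, 17.5 and 17.4 in scramble and 16.2, 15.2 and 11.6 in shATF4 libraries at 24 h. At 48 h it was 6.74 and 6.78 in scramble and 9.21 and 9.01 in shATF4 libraries, below every untreated library. All 24 h libraries lay above every untreated one, shATF4 replicate 3 by the least.

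**Figure D2:**
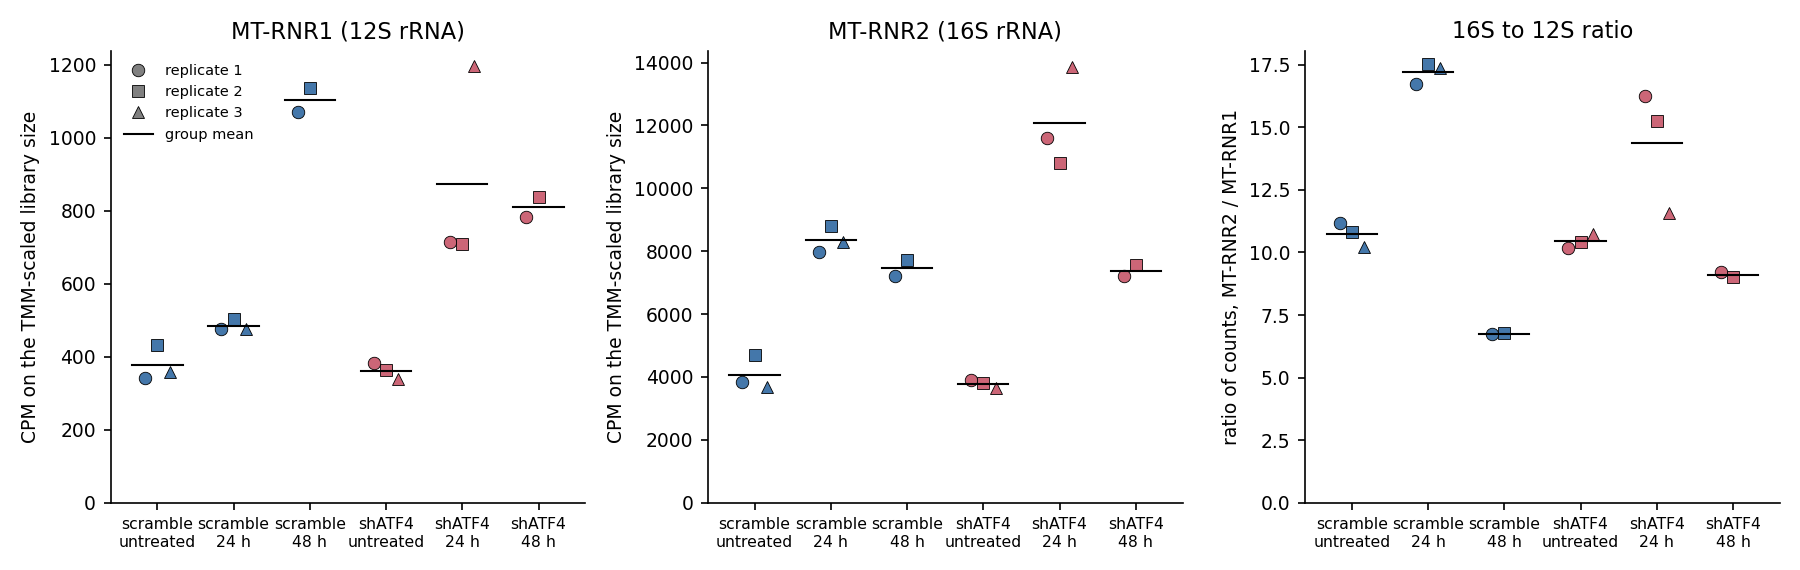
Level of the 12S and 16S ribosomal RNAs (CPM on the TMM-scaled library size) and the ratio of their counts (vertical axes) in each library of the 6 groups; bars are group means. The 16S RNA rose at 24 h in both lines, the 12S RNA of scramble cells mostly at 48 h (1071 and 1138 CPM), and the ratio went from 10.2 to 11.2 untreated to 11.6 to 17.5 at 24 h and 6.74 to 9.21 at 48 h.

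Among the messenger RNAs of scramble cells few passed the test with all libraries. Far more passed without the 2 libraries that stood apart, which were picked by the levels of these same genes. At 24 h none of the 13 was called higher by edgeR or DESeq2 and MT-CYB was called lower, with a median log2 change of -0.08; 1 (MT-ND6) was higher at an unadjusted p under 0.05. Without both libraries 9 were called higher and MT-CYB lower, with a median of 0.34, and 22.9% of all genes were called higher. At 48 h 3 of the 13 were called higher (median 0.02), where 30.6% of all genes were, so their number was not above that share. Without both libraries 10 were called higher (median 0.43), where 31.5% of all genes were. The median over all genes tested was -0.01 at 24 h and 0.03 at 48 h. With total counts in place of TMM the median of the messenger RNAs at 24 h was 0.13, so its sign depends on the scaling.

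The 3 messenger RNAs called higher in scramble cells at 48 h encode subunits of complexes I and IV. MT-ND1, a membrane subunit of complex I (3307 to 4262, plus strand), had 339, 771 and 360.0 CPM untreated, 460.2, 552 and 488 at 24 h, and 910.2 and 921 at 48 h. Its 48 h libraries lay above all others, and its log2 change was 0.90 ± 0.21 (adjusted p = 0.000788), or 1.39 ± 0.08 without both libraries that stood apart. MT-ND6 of complex I (14149 to 14673, minus strand) had 91.2, 161 and 84.5 CPM untreated, 134, 149 and 140.3 at 24 h, and 239 and 227 at 48 h. It rose by 1.05 ± 0.17 (adjusted p = 2.03e-05) at 48 h, to a level above all other scramble libraries. The strand setting of the counting is not given, so reads of the opposite strand may be counted to MT-ND6 in both lines. As it lacks a stable tail, a change in its amount cannot be told apart from one in its capture by oligo(dT). MT-CO1, the catalytic subunit of complex IV (5904 to 7445, plus strand), had 2413, 4338 and 2467 CPM untreated, 3089, 3749 and 3252 at 24 h, and 4417 and 4485 at 48 h. It rose by 0.53 ± 0.16 (adjusted p = 0.00749), with untreated replicate 2 just below the 48 h libraries, and the call was lost without untreated replicate 1 (adjusted p = 0.0504).

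MT-CYB, the cytochrome b of complex III (14747 to 15887, plus strand), moved the other way at 24 h. It had 546, 1071 and 551 CPM in untreated scramble libraries, 375, 451 and 375 at 24 h, and 589 and 569 at 48 h. All 24 h libraries lay below all others. Its log2 change was -0.85 ± 0.17 (adjusted p = 0.000311), and -0.45 ± 0.07 (adjusted p = 1.35e-05) without both libraries that stood apart. With total counts in place of TMM it was -0.64 ± 0.17 (adjusted p = 0.0037). From 24 h to 48 h MT-CYB rose by 0.53 ± 0.18 (adjusted p = 0.0268), a call that was lost without 24 h replicate 1 or 3 or either 48 h replicate (adjusted p of 0.088 to 0.133). Over the same interval MT-ND1 (0.87), MT-ND5 (0.67) and MT-ND6 (0.72) were also called higher, where 18.8% of all genes were. The call of MT-ND5, a proton-pumping subunit of complex I, was lost without 48 h replicate 2 (adjusted p = 0.0537).

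In shATF4 cells 12 of the 13 messenger RNAs rose at 24 h, the exception being MT-CYB, and 11 were called without both libraries that stood apart, where MT-ATP8 was lost as well (0.42 ± 0.23, adjusted p = 0.129). The median was 0.80, and 0.71 without both. Of all genes tested, 23.2% were called higher and 21.2% lower, and 23.1% higher without both. MT-ND1 had 323, 311 and 300.4 CPM untreated and 782, 661 and 745 at 24 h, without overlap, a log2 change of 1.23 ± 0.19 (adjusted p = 2.56e-05). MT-ND4, a proton-pumping subunit of complex I, had 954, 887 and 888 CPM untreated and 1766, 1373 and 1699 at 24 h (0.83 ± 0.21, adjusted p = 0.00257). MT-CO2, which takes up electrons from cytochrome c in complex IV, had 1083, 1072 and 1035 CPM untreated and 1969, 1820.2 and 2714 at 24 h (1.03 ± 0.16, adjusted p = 2.25e-05). For all 3 the lowest treated library lay above the highest untreated one, which describes the tested values and adds no support. MT-ATP6, the proton channel subunit of ATP synthase, rose least of those called (0.56 ± 0.21, adjusted p = 0.0314), and its call was lost without 24 h replicate 1 or any untreated shATF4 replicate (adjusted p of 0.0635 to 0.115). MT-CYB had 554, 531 and 521 CPM untreated and 601, 505 and 563 at 24 h, which overlap, and a log2 change of 0.06 ± 0.17 (adjusted p = 0.811).

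The log2 changes of the short protein-coding genes in shATF4 cells at 24 h depended on replicate 3, where their levels were highest. MT-ND4L, a small membrane subunit of complex I, had 106, 95.8 and 102 CPM untreated and 189, 161 and 416 at 24 h. Its log2 change was 1.34 ± 0.24 with all libraries and 0.79 ± 0.07 (adjusted p = 1.93e-09) without those that stood apart. MT-ND3 had 209.8, 192 and 213 CPM untreated and 264, 266 and 544 at 24 h, with 0.80 ± 0.19 and 0.37 ± 0.10 (adjusted p = 0.00331) for the same fits. MT-ATP8, an accessory subunit of ATP synthase, had 3.62, 4.01 and 6.16 CPM untreated and 6.55, 5.74 and 15.9 at 24 h, where the groups overlap. Its call was lost without replicate 3 (adjusted p = 0.218) and without untreated replicate 1 or 2 (adjusted p = 0.0670 and 0.0567).

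At 48 h shATF4 cells had 4 messenger RNAs called higher (median 0.22), where 29.6% of all genes were called higher and 28.7% lower. Their number, out of 13, was near the share of all genes. When both libraries that stood apart were left out, 9 were called (median 0.22), where 31.9% of all genes were called higher. MT-ND1 had 711 and 805 CPM (1.28 ± 0.21, adjusted p = 2.07e-05), MT-ND6 had 202 and 230.0 (1.31 ± 0.17, adjusted p = 1.39e-06), MT-ND5 had 519 and 598 (0.73 ± 0.19, adjusted p = 0.00225) and MT-CO1 had 3794 and 4586 (0.71 ± 0.16, adjusted p = 0.000855). All of these lay above every untreated shATF4 library, which for MT-ND5 were at 322 to 345 CPM and for MT-ND6 at 83.1 to 90.6. MT-ND1, MT-ND6 and MT-CO1 were the messenger RNAs called in scramble cells at that time as well. From 24 h to 48 h MT-ND2, MT-CO2, MT-ATP8 and MT-ND4L were called lower in shATF4 cells, with log2 changes of -0.69, -0.91, -1.32 and -1.13. Over that interval 24.5% of all genes were called lower, so this number too was near the share of all genes. MT-ATP8 lost that call without 24 h replicate 3 (adjusted p = 0.059) or 48 h replicate 1 (adjusted p = 0.0860).

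**Figure D3:**
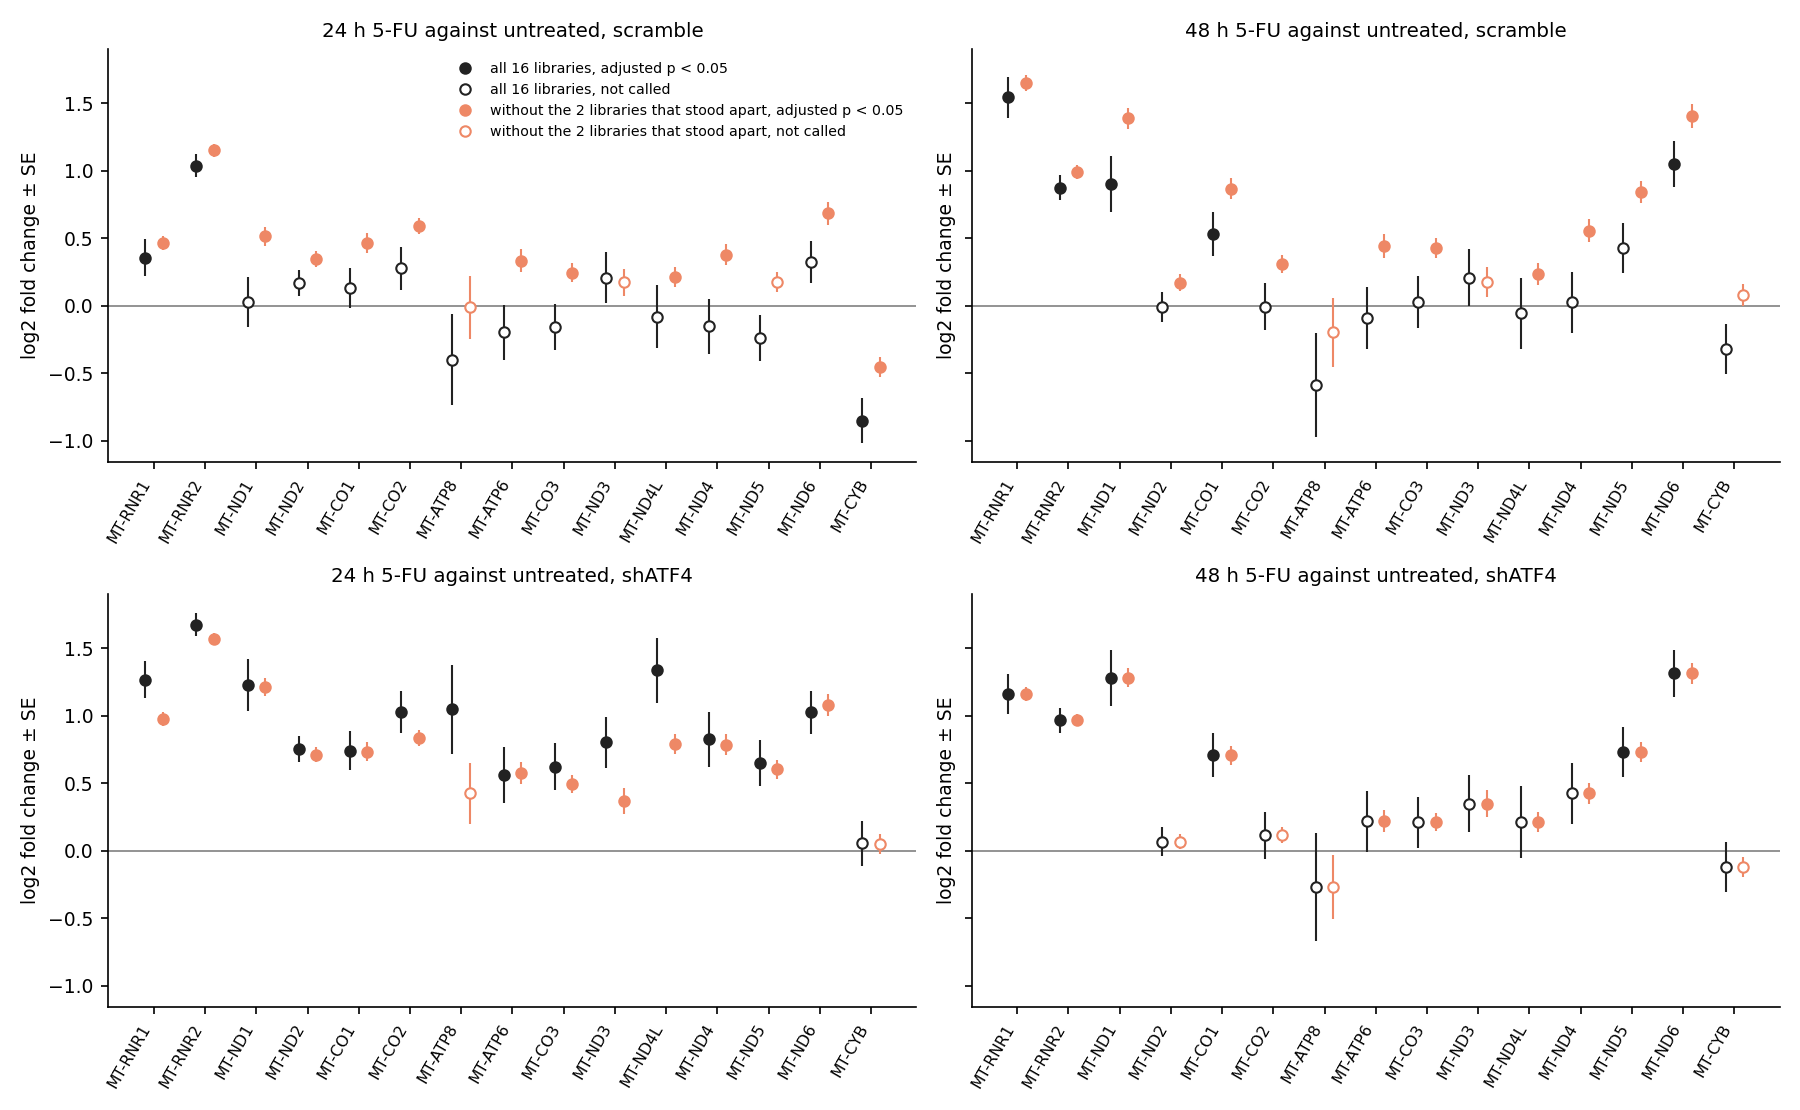
Log2 change with its SE (vertical axis) of the 2 ribosomal RNAs and 13 messenger RNAs, in genome order, at 24 h and 48 h of 5-FU against untreated cells in each line; black points rest on all 16 libraries, orange points on 14, and filled points passed the test. In scramble cells the orange points lie above the black ones except for MT-ND3, and MT-CYB is the only filled point below 0 at 24 h (-0.85 and -0.45).

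The makeup of the messenger RNA pool can be followed within each library, where scaling and a common rise of all members cancel. MT-CYB made up 6.39% to 6.71% of the counts of the 13 messenger RNAs in untreated scramble libraries, replicate 2 included, and 6.24% to 6.36% in untreated shATF4 libraries. At 24 h it made up 3.51% to 3.79% and 3.57% to 4.05%, and at 48 h 4.37% to 4.59% and 4.21% to 4.26%. The ranges of the 3 states did not overlap in either line. MT-ND1 made up 4.04% to 4.83% and 3.60% to 3.71% untreated, 4.49% to 4.64% and 4.73% to 5.30% at 24 h, and 7.08% to 7.09% and 6.43% to 6.63% at 48 h. MT-ND6 went from 0.980% to 1.09% and 0.991% to 1.09% untreated to 1.74% to 1.86% and 1.84% to 1.89% at 48 h. MT-CO2 was at its highest at 24 h, with 13.6% to 13.8% and 13.2% to 17.2%, and at its lowest at 48 h, with 9.36% to 9.70% and 9.81% to 10.0%. These shares are descriptions and were not tested.

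Between genes, levels were compared as CPM per kb of gene length. In untreated shATF4 cells, whose libraries were close, MT-RNR2 was the highest at 2427 ± 82.1 (SD, n = 3), followed by MT-CO1 (1665 ± 24.5), MT-CO2 (1555 ± 37.1), MT-CO3 (1130.1 ± 16.9) and MT-ATP6 (1055 ± 28.1). The complex I genes MT-ND2, MT-ND4 and MT-ND3 came next at 724 ± 28.1, 660.3 ± 27.7 and 593 ± 33.0, and then MT-CYB at 469 ± 14.8. MT-RNR1 (380.0 ± 23.1), MT-ND4L (341 ± 17.2) and MT-ND1 (326 ± 11.8) followed, with overlap between MT-RNR1 and MT-ND4L and between MT-ND4L and MT-ND1. MT-ND5 (186 ± 6.97), MT-ND6 (166 ± 7.12) and MT-ATP8 (22.2 ± 6.59) were the lowest. In scramble cells MT-RNR1 had 397 ± 50.4 (n = 3) untreated and 1158 ± 49.4 (n = 2) at 48 h.

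The transfer RNA genes are 59 to 75 bp long, far shorter than the fragments selected for the libraries, so whether a read came from a mature transfer RNA or from a longer transcript across the gene cannot be told apart. Of the tested ones 4 are shown, 5′ to 3′ on their own strand, with the anticodon in capitals. MT-TL1 (3230 to 3304, plus strand) is a leucine transfer RNA just behind MT-RNR2. MT-TN (5657 to 5729) and MT-TC (5761 to 5826), for asparagine and cysteine, and MT-TP (15956 to 16023), for proline, lie on the minus strand. Without a known strand setting for the counting, reads of the opposite strand may be counted to them.
MT-TL1: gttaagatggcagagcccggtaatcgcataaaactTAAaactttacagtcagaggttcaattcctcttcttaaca
MT-TN: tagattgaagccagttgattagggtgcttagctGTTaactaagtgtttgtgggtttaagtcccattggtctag
MT-TC: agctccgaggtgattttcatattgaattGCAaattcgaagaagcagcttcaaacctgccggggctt
MT-TP: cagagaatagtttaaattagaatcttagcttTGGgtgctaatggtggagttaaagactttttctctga

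MT-TN, MT-TC and MT-TP rose at both times in both lines. MT-TN had group means of 9.25, 22.4 and 17.9 CPM untreated, at 24 h and at 48 h in scramble cells. In shATF4 cells they were 9.06, 39.5 and 20.7, with 75.6 CPM in 24 h replicate 3 beside 19.7 and 23.1 in the others. The call of MT-TN in scramble cells at 48 h was lost without any of 11 libraries and with DESeq2 (adjusted p = 0.0846). MT-TC had 21.9, 22.1 and 20.5 CPM in untreated scramble libraries, 45.7, 44.8 and 46.3 at 24 h, and 40.5 and 42.2 at 48 h. In shATF4 libraries it had 21.3, 25.0 and 22.2 CPM untreated, 49.6, 53.2 and 171 at 24 h, and 51.0 and 38.5 at 48 h. Treated libraries lay above untreated ones throughout, and the log2 changes were 1.08 ± 0.31 (adjusted p = 0.00712) and 2.01 ± 0.31 (adjusted p = 1.93e-05) at 24 h and 0.94 ± 0.34 (adjusted p = 0.0206) and 0.97 ± 0.34 (adjusted p = 0.0174) at 48 h. In the fit without both libraries that stood apart, the change of MT-TC at 24 h was 1.11 ± 0.11 in scramble and 1.17 ± 0.10 in shATF4 cells. MT-TP had 14.7, 16.9 and 18.2 CPM untreated, 30.1, 30.5 and 27.1 at 24 h, and 54.0 and 54.8 at 48 h in scramble cells, and rose by 0.81 ± 0.18 (adjusted p = 0.000982) and 1.71 ± 0.19 (adjusted p = 1.36e-07). Calls of MT-TN and MT-TC at 48 h had adjusted p-values of up to 0.168 and 0.0797 in scramble cells and 0.297 and 0.143 in shATF4 cells when 1 library was left out.

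MT-TL1 rose early in shATF4 cells and late in scramble cells. It had 1.98, 3.99 and 2.28 CPM in untreated scramble libraries, 2.82, 2.64 and 2.78 at 24 h, and 8.06 and 8.40 at 48 h. In shATF4 libraries it had 1.09, 2.21 and 1.36 CPM untreated, 10.4, 9.26 and 5.30 at 24 h, and 2.91 and 6.17 at 48 h. The log2 change was -0.01 ± 0.33 (adjusted p = 0.976) at 24 h and 1.56 ± 0.32 (adjusted p = 0.000226) at 48 h in scramble cells, and 2.41 ± 0.32 (adjusted p = 4.15e-06) and 1.54 ± 0.37 (adjusted p = 0.00114) in shATF4 cells. The call at 48 h in shATF4 cells was lost without replicate 2 (adjusted p = 0.0965). MT-TY, for tyrosine, was called higher in scramble cells at 48 h (1.16 ± 0.28) and in shATF4 cells at 24 h (1.39 ± 0.26). From 24 h to 48 h MT-TL1 and MT-TY were called higher in scramble cells (1.58 and 0.70) and lower in shATF4 cells (-0.87 and -0.70). All of these calls but that of MT-TL1 in scramble cells were lost without at least 1 library, with adjusted p-values of up to 0.188 for MT-TY in scramble cells and 0.337 and 0.349 for MT-TL1 and MT-TY in shATF4 cells. MT-TN and MT-TC were called lower in shATF4 cells over that interval, and without 24 h replicate 3 their adjusted p-values were 0.868 and 0.127.

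The other tested transfer RNA genes had few counts. They passed the filter through the libraries where their counts were highest, so calls in favour of those groups are no independent support. MT-TV passed with 65 counts in all, while MT-TG with 67 did not. MT-TH, for histidine, had 53 counts over the 3 untreated scramble libraries and 5 in each of the treated scramble groups, and fell, with log2 changes of -3.47 ± 0.64 (adjusted p = 0.000154) at 24 h and -2.95 ± 0.68 (adjusted p = 0.000832) at 48 h. In shATF4 cells it had 28, 17 and 14 counts, and its changes of -0.85 and -0.75 did not pass (adjusted p = 0.231 and 0.299). MT-TV, for valine, had 5, 4 and 18 counts over the scramble groups, and its call at 48 h (2.14 ± 0.91, adjusted p = 0.0463) was lost without any of 6 libraries, with an adjusted p of up to 0.169. It was also called from 24 h to 48 h in both lines (2.61 and 2.45), with adjusted p-values of up to 0.143 and 0.638 when 1 library was left out. MT-TR, for arginine, had 32 counts untreated and 8 at 24 h in shATF4 cells (-2.09 ± 0.75, adjusted p = 0.0288), and lost its call without either of 24 h replicates 1 and 2 or untreated replicates 1 and 2 (adjusted p of 0.0512 to 0.0971). The 14 genes below the filter included MT-TG, with 24, 1 and 6 counts over the scramble groups, and MT-TL2, with 23, 6 and 3.

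Before the drug 1 of the 23 tested members was called between the lines. MT-ND2, a complex I subunit, had 830.4, 1198 and 882 CPM in scramble and 788, 742 and 734 in shATF4 libraries, which did not overlap (-0.36 ± 0.10, adjusted p = 0.0472), where 1.84% of all genes were called lower. Without scramble replicate 2 its adjusted p was 0.230, and it was also above the threshold without any of 8 other libraries. The median log2 difference of the messenger RNAs was -0.42 with all libraries and -0.04 without both that stood apart, where no member was called.

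At 24 h of 5-FU 9 of the 23 tested members were called higher in shATF4 than in scramble cells and none lower. With all libraries 5 messenger RNAs, both ribosomal RNAs and the transfer RNA genes MT-TL1 and MT-TC were called higher, where 10.5% of all genes were. Without both libraries that stood apart 11 messenger RNAs, both ribosomal RNAs, MT-TL1 and MT-TY were called higher, where 11.5% of all genes were. The median difference of the messenger RNAs was 0.45, and 0.35 without both, beside 0.01 for all genes tested. MT-RNR1 was 0.85 ± 0.14 higher (adjusted p = 0.000222) and MT-RNR2 0.53 ± 0.08 (adjusted p = 0.0002). Without both libraries these were 0.55 ± 0.05 (adjusted p = 3.85e-08) and 0.42 ± 0.05 (adjusted p = 2.16e-07). All 3 shATF4 libraries lay above all 3 scramble libraries for both. MT-TC lost its call without shATF4 replicate 3 (adjusted p = 0.230) or any scramble 24 h replicate (adjusted p of 0.0533 to 0.0592).

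The 5 messenger RNAs called higher with all libraries were MT-ND1 (0.55 ± 0.19, adjusted p = 0.0454), MT-CO2 (0.53 ± 0.16, adjusted p = 0.0215), MT-ATP8 (0.97 ± 0.32, adjusted p = 0.0384), MT-ND4L (1.0 ± 0.24, adjusted p = 0.00504) and MT-CYB (0.48 ± 0.17, adjusted p = 0.0483). For each of them the shATF4 libraries lay above the scramble libraries, which describes the tested values and adds no support. With all libraries DESeq2 called 1 of them, MT-ND4L, and scaling to total counts 2, MT-ND4L and MT-CO2. MT-ND1 and MT-CYB lost their calls without any 1 of 13 libraries (adjusted p of up to 0.162 and 0.167). MT-CO2 lost its call without scramble 24 h replicate 1 or 3 or shATF4 24 h replicate 3 (adjusted p of 0.0762 to 0.0932). MT-ATP8 lost its call without any scramble 24 h replicate or shATF4 24 h replicate 3 (adjusted p of 0.0624 to 0.391). With both libraries that stood apart left out, MT-ND1 (0.53 ± 0.07), MT-CYB (0.47 ± 0.07), MT-CO2 (0.34 ± 0.06) and MT-ND4L (0.46 ± 0.07) passed, and MT-ATP8 (0.35 ± 0.22, adjusted p = 0.274) and MT-ND3 (0.01 ± 0.10, adjusted p = 0.942) did not.

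RNA without a poly(A) tail moved with this comparison. Of the 6 such RNAs looked up, RN7SL1, RN7SK, RMRP and RPPH1 were at 0 in every library, and RN7SL2 and RN7SL3 were both called higher in shATF4 cells at 24 h, by 3.04 ± 0.52 and 3.37 ± 0.46. Against untreated shATF4 cells they were higher by 2.28 ± 0.50 and 2.90 ± 0.45, and the interaction was 3.10 ± 0.71 (adjusted p = 0.0263) for RN7SL2. When both libraries that stood apart were left out, they were still higher between the lines, by 2.26 ± 0.35 and 2.69 ± 0.37. Their summed level was 225, 243 and 740 CPM in shATF4 24 h libraries and 41.0 to 59.9 CPM in scramble 24 h libraries. It was 34.9 to 180.1 CPM in untreated scramble, 54.0 to 110 in untreated shATF4, 30.8 to 52.7 in scramble 48 h and 29.4 to 67.5 in shATF4 48 h libraries. Their part in the mitochondrial values of shATF4 cells at 24 h was not tested.

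At 48 h no member was called between the lines by edgeR or DESeq2 with all libraries, where edgeR called 9.45% of all genes in either direction, and 5 members were lower at an unadjusted p under 0.05. The differences of the messenger RNAs ran from -0.29 to -0.01, with a median of -0.16, and MT-RNR1 was at -0.45 ± 0.17 (adjusted p = 0.0966). The 2 scramble libraries had 1071 and 1138 CPM of MT-RNR1 and the 2 shATF4 libraries 784 and 838. Without both libraries that stood apart, which are in other groups but bear on the estimate of spread, 8 members were called lower in shATF4 cells, where 9.47% of all genes were. They were MT-RNR1 (-0.45 ± 0.06, adjusted p = 3.38e-06), the messenger RNAs MT-ND1, MT-ND2, MT-CO3 and MT-CYB (-0.29 to -0.23) and the transfer RNA genes MT-TL1, MT-TY and MT-TP.

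The difference between the lines in their response to 5-FU was tested as an interaction. At 24 h 7 members had a positive interaction, a log2 change that was higher in shATF4 than in scramble cells, where 0.947% of all genes were called higher. They were MT-RNR1 (0.91 ± 0.19, adjusted p = 0.0195), MT-RNR2 (0.64 ± 0.12, adjusted p = 0.0119), MT-TL1 (2.42 ± 0.47, adjusted p = 0.0138), and the messenger RNAs MT-ND1 (1.20 ± 0.27, adjusted p = 0.0253), MT-ND2 (0.59 ± 0.14, adjusted p = 0.0294), MT-ND4L (1.42 ± 0.33, adjusted p = 0.0301) and MT-CYB (0.91 ± 0.24, adjusted p = 0.0459). For MT-CYB the log2 change was -0.85 in scramble cells and 0.06, not called, in shATF4 cells. Its mean share of the messenger RNA counts fell in both lines, from 6.54% to 3.65% in scramble and from 6.31% to 3.88% in shATF4 cells. With both libraries that stood apart removed, 9 were called, where 2.16% of all genes were called higher. The messenger RNAs among the 9 were MT-ND1 (0.70 ± 0.10), MT-ND2 (0.36 ± 0.08), MT-ND4L (0.58 ± 0.11), MT-ND4 (0.41 ± 0.11), MT-ND5 (0.43 ± 0.10) and MT-CYB (0.50 ± 0.11), beside MT-RNR1 (0.51 ± 0.08), MT-RNR2 (0.41 ± 0.06) and MT-TL1 (2.29 ± 0.41). The median over the messenger RNAs was 0.78 with all libraries and 0.39 without both.

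Of these calls MT-RNR2 and MT-TL1 were kept whichever single library was left out, and the other 5 were lost in 3 to 11 of the 16 cases. MT-CYB reached an adjusted p of 0.132 and MT-RNR1 one of 0.0578 among those cases. At 48 h no member was called in the interaction by edgeR or DESeq2 with all libraries, where edgeR called 2.74% of all genes in either direction, and 1 member (MT-TH) had an unadjusted p under 0.05. Without both libraries MT-RNR1 was called lower (-0.49 ± 0.08, adjusted p = 0.000273). The median over the messenger RNAs at 48 h was 0.27 with all libraries and -0.11 without both, and it was also -0.11 without untreated scramble replicate 2 alone, so its direction rests on that library.

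**Figure D4:**
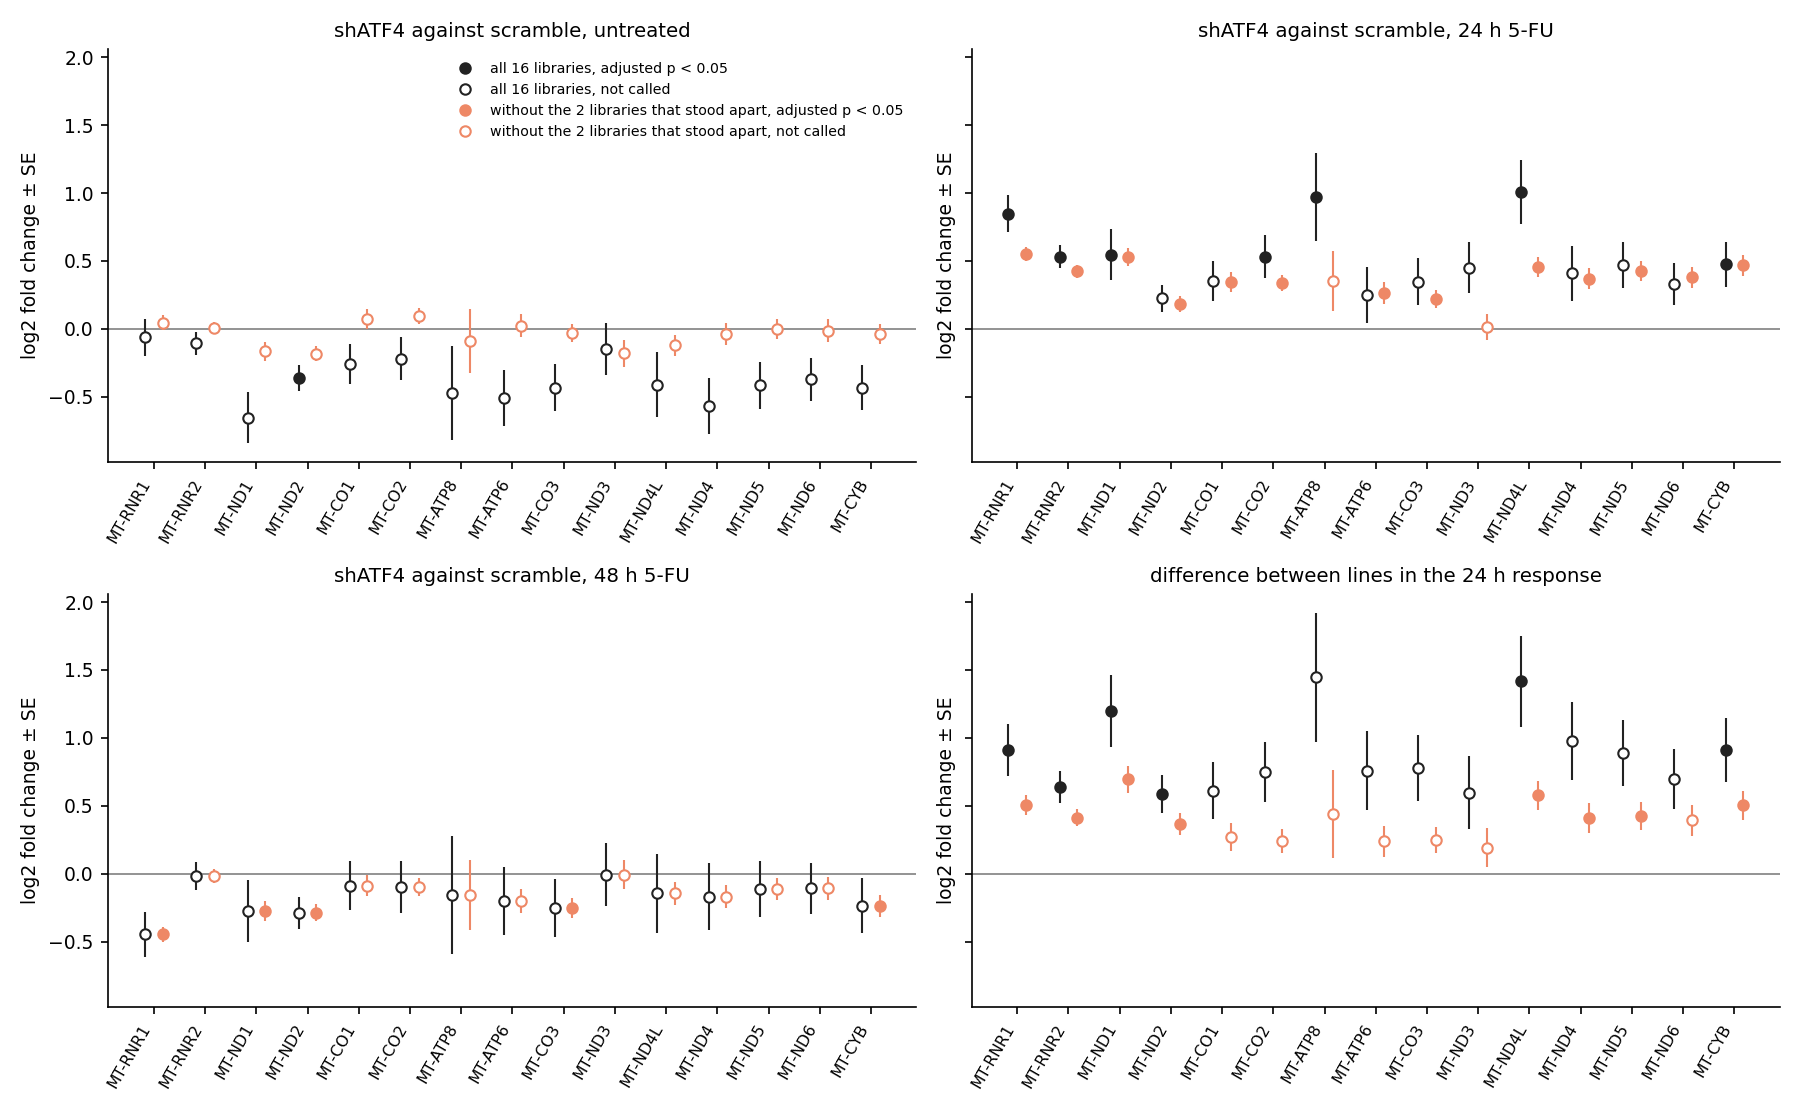
Log2 difference with its SE (vertical axis) between shATF4 and scramble cells at each state, and the difference between the lines in the 24 h response, for the 2 ribosomal RNAs and 13 messenger RNAs in genome order; black points rest on all 16 libraries, orange points on 14, and filled points passed the test. Untreated, the orange points lie near 0 (median of the messenger RNAs -0.04), and at 24 h 11 of 13 messenger RNAs are filled without the libraries that stood apart.

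Most of the nuclear genes for mitochondrial RNA processing fell over the same interval. Of all genes tested, 30.0% were called lower in scramble cells at 48 h and 28.7% in shATF4 cells. Of 29 genes for processing and stability of mitochondrial RNA, 24 were called lower and none higher in scramble cells at 48 h (median -0.65), and 20 and none in shATF4 cells (median -0.45). LRPPRC, which keeps mitochondrial messenger RNAs stable, fell by 0.65 ± 0.08 (adjusted p = 3.81e-07) and 0.39 ± 0.08. ELAC2, which trims the 3′ ends of transfer RNAs, fell by 1.11 ± 0.08, TRMT10C, a part of mitochondrial RNase P, by 1.20 ± 0.11, the pseudouridine synthase RPUSD4, which acts on 16S RNA, by 1.80 ± 0.10, and TBRG4 by 1.07 ± 0.08 in scramble cells. Of 14 genes for transcription and replication of mitochondrial DNA, 6 were called lower and 2 higher in scramble cells at 48 h, and 5 and 3 in shATF4 cells, numbers lower that are nearer to the share of all genes. The polymerase POLRMT fell by 0.80 ± 0.13 and 0.56 ± 0.13 and the packaging factor TFAM by 0.74 ± 0.10 and 0.63 ± 0.10 in the 2 lines. All 7 regulators of mitochondrial biogenesis were called lower in shATF4 cells at 48 h and 6 in scramble cells, among them the coactivator PPARGC1B (-1.77 ± 0.18) and the factor NRF1 (-0.89 ± 0.11).

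Between the lines at 24 h 6 of the 29 RNA processing genes were called higher in shATF4 cells and 1 lower. Of the 14 transcription and replication genes 4 were called higher and none lower. Of all genes 10.5% were called higher, and 1712 of 17309 lower. With both libraries that stood apart removed, the numbers of these lists were 3 higher and 2 lower, and 2 higher and none lower. In that fit 11.5% of all genes were called higher and 1842 of 17193 lower, so the numbers higher were near the share of all genes. LRPPRC was the gene called lower with all libraries. It was 0.58 ± 0.07 lower in shATF4 than in scramble cells (adjusted p = 9.93e-06), and the interaction was -0.40 ± 0.10 (adjusted p = 0.0343). With both libraries that stood apart left out, these were -0.53 ± 0.06 and -0.30 ± 0.08, both called. POLRMT (-0.02 ± 0.11) and TFAM (-0.09 ± 0.09) did not pass in that comparison.

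The nuclear subunits of the respiratory complexes can be set beside the mitochondrial ones. In scramble cells at 48 h 24 of 37 nuclear genes of complex I were called lower and 2 higher (median -0.47), 7 of 9 of complex III lower (median -0.73), 4 of 11 of complex IV lower (median -0.34) and 11 of 16 of complex V lower (median -0.75), with no gene of complexes III to V called higher, where 30.0% of all genes were called lower. In shATF4 cells the numbers called lower were 14, 5, 2 and 11, where 28.7% of all genes were called lower. With all libraries the complex IV genes were near or below the share of all genes in both lines. UQCRC2 of complex III fell by 1.27 ± 0.09, COX7C of complex IV by 0.86 ± 0.24 and ATP5MC2 of complex V by 1.26 ± 0.08 in scramble cells. None of the 13 mitochondrial messenger RNAs was called lower at 48 h in either line. Without both libraries that stood apart the numbers lower were 29, 8, 8 and 15 in scramble and 18, 8, 5 and 12 in shATF4 cells. In that fit 5476 of 17193 genes were called lower in scramble and 5425 in shATF4 cells. The 8 of 11 complex IV genes in scramble cells were then above the share of all genes.

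Some nuclear subunits were called higher in shATF4 than in scramble cells at 24 h, and fewer of them without both libraries that stood apart. With all libraries, where 10.5% of all genes were called higher, 13 of 37 genes of complex I, 2 of 9 of complex III, 4 of 11 of complex IV and 7 of 16 of complex V were called higher and none lower. In the fit without both libraries that stood apart, these numbers were 7, 0, 0 and 4, with none lower, where 11.5% of all genes were called higher. The summed level of the complex IV genes was 1153, 1355 and 2133 CPM in the 3 shATF4 libraries. COX7C was 0.64 ± 0.21 higher with all libraries and 0.11 ± 0.08 without both (adjusted p = 0.368), while ATP5MC2 was called in each fit (0.33 ± 0.07 and 0.26 ± 0.06). In the fit without both libraries 11 of 13 mitochondrial messenger RNAs were called higher in the same comparison.

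**Figure D5:**
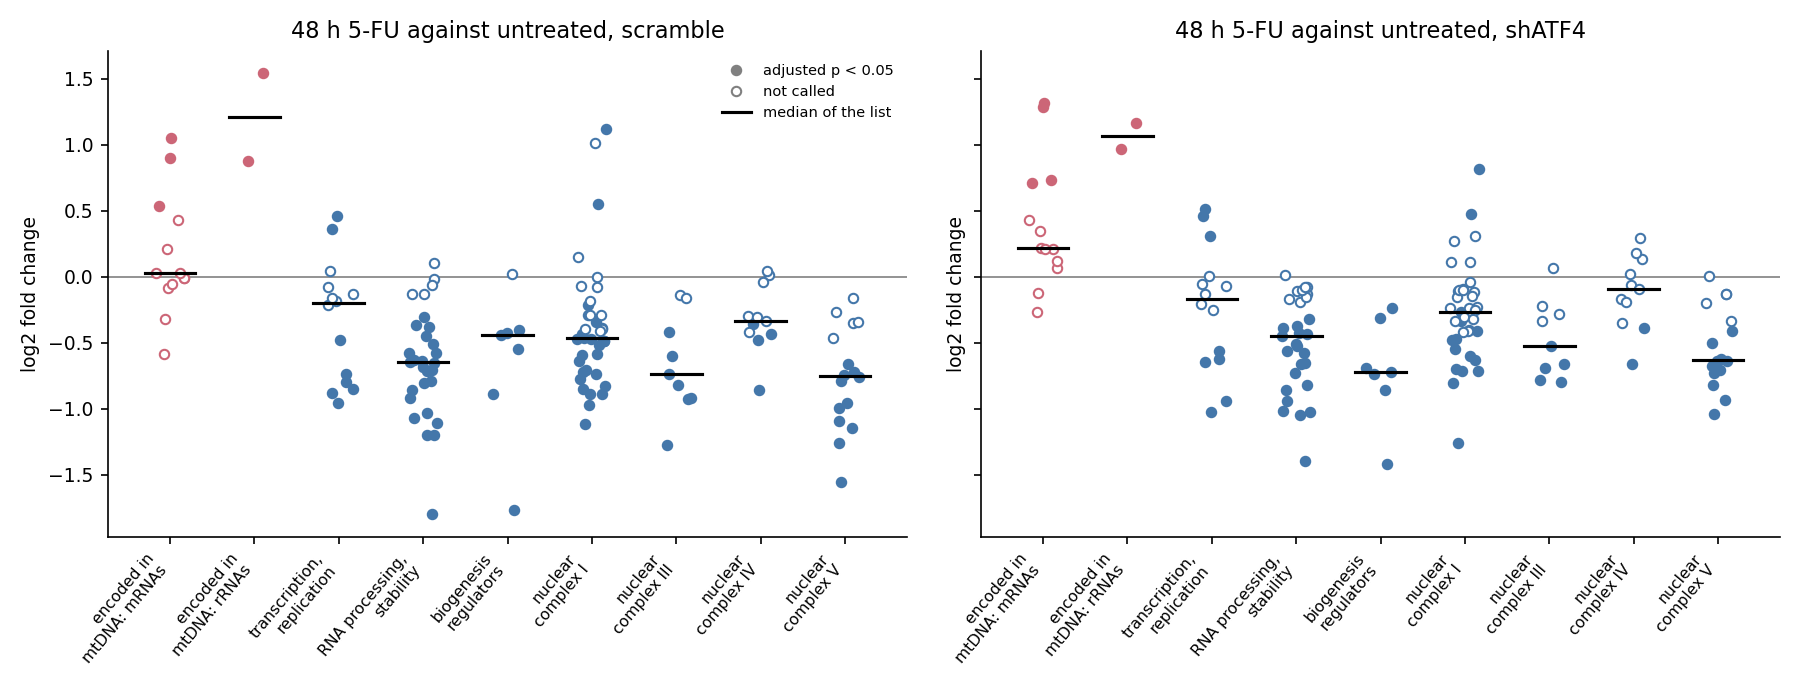
Log2 change at 48 h of 5-FU (vertical axis) of the mitochondrial messenger RNAs and ribosomal RNAs (red) and of 7 lists of nuclear genes (blue) in each line; each point is a gene, filled where it passed the test, and bars are medians. The medians of the nuclear lists lie below 0. Those of the messenger and ribosomal RNAs are 0.02 and 1.21 in scramble and 0.22 and 1.06 in shATF4 cells, beside 0.03 for all genes in each line.

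The authors' deposited table gives its own fold changes and adjusted p-values for 7 of the comparisons. At an adjusted p under 0.05 it has 11 mitochondrial messenger RNAs higher at 24 h and 8 at 48 h in shATF4 cells, and 1 and 2 in scramble cells. The 1 in scramble cells at 24 h is MT-ND3 (0.23, the authors' adjusted p = 0.00277), which edgeR did not call. MT-CYB, called lower there by edgeR, is at -0.83 in the authors' values and not called (their adjusted p = 0.0602). Between the lines the authors' deposited table has no messenger RNA called untreated, 9 higher in shATF4 cells at 24 h and 4 lower at 48 h. Both ribosomal RNAs are higher after 5-FU in each line and at each time in the authors' deposited table.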

How the data were processed

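RNA selected for poly(A) tails was sequenced in 16 libraries. The deposited values used here are whole-number counts for each gene, which the authors made with featureCounts 1.5.0-p3 on GRCh38, per the submitters' processing notes. Aligner, annotation release and strand setting: not given in the sources used here. Per the file headers, the authors' table further holds log2 fold changes and p-values, made by a test that no label names, gene lengths in bp (other annotation), and 16 columns of per-sample FPKM values that were not used.

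After filtering by filterByExpr (edgeR 4.0.16, R 4.3.3), 17309 of 58735 genes with 99.9% of counts were left. Libraries were scaled by TMM, and 1 quasi-likelihood model with 6 groups was fitted to all 16 libraries (10 residual degrees of freedom, common biological coefficient of variation 0.0847), with 11 contrasts. Benjamini-Hochberg adjustment ran over all genes tested, and SEs come from the F statistic. Counts carry no molecular identifiers, so their precision covers counting error only. Total counts were 14571611 to 17824188 per library. No replicate pair agreed within sampling noise (chi-square per degree of freedom 1.84 to 31.5). The fit was tested on simulated data. Python 3.11.15 and Biopython 1.88 read the sequences.

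The members, the nuclear lists and the pair of libraries left out were chosen with earlier results of these data known. All messenger and ribosomal RNAs and the tested transfer RNA genes are named, with TFAM, POLRMT and LRPPRC, and up to 4 genes of each nuclear list with the smallest adjusted p at 48 h in scramble cells; 1 gene that this rule names is not reported here. Alternatives were DESeq2 1.42.0, other scalings and filters, a replicate block, fits of only the groups compared, and leaving out libraries.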

Additional observations from a re-analysis of the deposited data

Results flagged for a closer look

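The response to 24 h of 5-FU differed between the lines in 7 members, by the interaction contrast of the quasi-likelihood test in edgeR. The log2 change was higher in shATF4 cells in each case. For MT-CYB it was -0.85 in scramble and 0.06 in shATF4 cells, the latter not called. The differences were 0.91 for MT-RNR1, 0.64 for MT-RNR2, 2.42 for MT-TL1, 1.20 for MT-ND1, 0.59 for MT-ND2, 1.42 for MT-ND4L and 0.91 for MT-CYB on the log2 scale. The untreated scramble replicate 2 and the shATF4 24 h replicate 3 both enter this contrast. Without both, all 7 were still called, at 0.51, 0.41, 2.29, 0.70, 0.36, 0.58 and 0.50 in the same order. These 2 libraries were picked because levels of the members stood apart in them, so that fit is no independent support. When any 1 library was left out, only MT-RNR2 and MT-TL1 always kept their calls. The others lost them in 3 (MT-RNR1) to 11 (MT-CYB) of the 16 cases. A fit of only the groups compared called 3 members, with 0 messenger RNAs among them. RN7SL2 and RN7SL3, which have no poly(A) tail, were higher in the same shATF4 libraries, and their part in these differences was not tested.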

How the results depend on the processing

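Numbers here count called members of the 23 tested. No call reversed its direction under any alternative run. Of the alternative values of single members' calls and of shares, 1948 stayed on their side of the threshold or within the spread, 216 lost the call and 7 shares moved by more than the spread. Without a filter on low counts 11 members were called between the lines untreated (1 with the filter), 19 at 24 h (9) and 6 at 48 h (0), 13 in scramble cells at 24 h (7), and 18 and 3 in the interactions at 24 h (7) and 48 h (0). Fits of only the groups compared called 0 untreated and 8 at 48 h between the lines, 16 in shATF4 cells at 48 h (10), 16 in scramble cells from 24 h to 48 h (9) and 3 in the interaction at 24 h. Without both libraries that stood apart 0, 15 and 8 were called between the lines untreated, at 24 h and at 48 h, 17 in scramble cells at 24 h, 16 in shATF4 cells at 48 h, 14 in scramble cells from 24 h to 48 h and 1 in the interaction at 48 h. Scaling to total counts, chosen after seeing the data, called 0 untreated, 11 in scramble cells at 24 h and 17 in shATF4 cells at 48 h. A mean of at least 1 CPM and upper-quartile scaling each called 0 untreated, and DESeq2 called 5 between the lines at 24 h. The causes of these shifts were not tested. The share of all genes called was counted only in the main fit, with total counts and without both libraries that stood apart. For the other runs here and below, whether the shifts are particular to the members cannot be told.

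Leaving out 1 library in turn, 0 to 3 members were called between the lines untreated, 4 to 17 at 24 h and 0 to 3 at 48 h. The range was 6 to 15 (24 h) and 9 to 15 (48 h) in scramble cells, 17 to 20 and 9 to 12 in shATF4 cells, 5 to 10 and 7 to 14 from 24 h to 48 h in the 2 lines, and 2 to 12 and 0 to 1 in the interactions. The highest count between the lines at 24 h, and in scramble cells at 24 h, came without untreated scramble replicate 2.

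With a replicate block 1 member was called at 48 h between the lines (0 without it), and no other count moved by over 1.5 times. Replicate numbers shared by the groups were not treated as pairs: same-numbered libraries correlated at -0.0766 to 0.116 (median 0.020, 36 pairs) in their deviations from the group means, beside a median of -0.0114 for other pairs. A library correlated best with its own number in 41 of 72 cases, each among the 2 or 3 libraries of another group, a weak hint from the data and not from the design.

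Depth limits the transfer RNA genes, 14 of which had at most 70 counts in all and were not tested.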
